A study of Mus musculus with 5 samples.

Results

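Fibroblast growth factors (FGFs) and their receptors were followed across 5 arrays of cultured mouse pancreatic cells. The set held 10 genes, of 19938 measured: the receptors Fgfr1, Fgfr2, Fgfr3 and Fgfr4 and the ligands Fgf1, Fgf2, Fgf7, Fgf9, Fgf10 and Fgf18. A gene was taken from the probe set annotated with its symbol alone, and each of the 10 had 1 such probe set. Pancreatic ductal adenocarcinoma (PDAC) cells came from 3 cultures with the genotype Pdx-1CreAPCL/+p53L/L, and normal ductal cells from 2 cultures, titled Pdx-1Cre p53L/L for replicate 1 and Pdx-1 p53L/L for replicate 2. All 5 titles give floxed p53 alleles. The series design gives the Pdx-1Cre transgene for both groups, whose Pdx-1 promoter drives Cre recombinase in the pancreatic lineage. The PDAC cultures alone carry a floxed allele of Apc, a gene whose product helps to destroy beta-catenin. The title of normal ductal replicate 2 names neither Cre nor ductal cells, though its cell type label says ductal, and PDAC replicate 3 is also called mutant. Culture was in 10% serum and lasted under 6 passages, the series design calls them cell lines, and no age of the animals is used here.

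FGFs are secreted proteins that bind receptor tyrosine kinases together with heparan sulfate, and the activated receptor signals through adaptor proteins to the RAS and MAPK cascade, which switches on its own inhibitors. In the developing pancreas Fgf10 from the mesenchyme keeps epithelial progenitors dividing through Fgfr2. Fgf7, also called keratinocyte growth factor, is likewise a product of mesenchymal cells that acts on the epithelial splice form of Fgfr2. A single probe set per gene does not separate splice forms.

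Signals are given on the log2 scale, so that a difference of 1 is a doubling. Array medians lay between 5.90 and 6.02. Apc itself stood at 9.0, 9.06 and 8.58 in PDAC replicates 1, 2 and 3, against 9.23 and 9.02 in normal ductal replicates 1 and 2, and did not pass the limma test (log2 fold change -0.25, SE 0.20, adjusted p = 0.590). Which exons this probe set reads is not given in the sources used here, so it does not check the deletion. The cultures differed in marker levels. The mean of 16 epithelial markers was 6.13, 6.77 and 8.28 in PDAC replicates 1, 2 and 3, against 10.66 and 10.33 in normal ductal replicates 1 and 2, and that of 8 measured duct markers was 6.09, 7.22 and 8.44 against 9.11 and 8.77. Normal ductal replicate 2 stood more than 1 above replicate 1 for 11 of 15 fibroblast and stellate, 4 of 9 acinar, 5 of 10 islet and 5 of 10 endothelial markers, for 3 of 8 mesothelial and for 2 of 11 leukocyte markers. For all genes this share was 2.93%. The fibroblast list mean was 9.17, 9.12 and 8.81 in PDAC replicates 1, 2 and 3, against 7.41 and 9.63 in normal ductal replicates 1 and 2. The mean of 8 mesothelial markers was 5.29, 6.01 and 8.84 in PDAC replicates 1, 2 and 3, against 7.15 and 7.62 in normal ductal replicates 1 and 2, so that PDAC replicate 3 was high in this list. In cultures that mix cells, fewer cells of a type and less RNA per cell cannot be told apart.

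**Figure D1:**
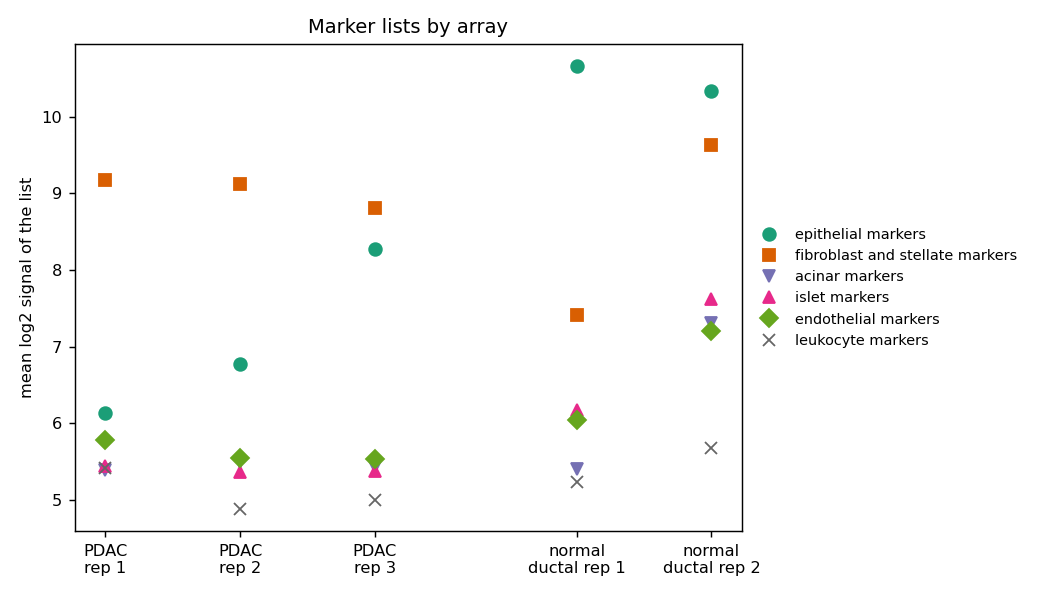
Mean log2 signal (vertical axis) of 6 cell type marker lists in each array (horizontal axis, PDAC replicates left, normal ductal replicates right), 1 symbol per list. Epithelial markers are lower in each PDAC array (6.13 to 8.28) than in normal ductal arrays, and normal ductal replicate 2 stands above replicate 1 in its fibroblast, acinar, islet and endothelial lists.

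The comparison set tumour cells with a floxed Apc allele against duct cells that lack it. Every PDAC culture and no normal ductal culture carries that allele, so tumour state and Apc genotype cannot be told apart. None of the 10 genes passed the limma test with an adjusted p under 0.05, a threshold that 0.0552% of all genes passed, 1 higher and 10 lower in PDAC. That balance moved with the scaling of the arrays, to 9 higher and 32 lower after quantile normalization and to 10 higher and 23 lower with arrays at a common median. At an unadjusted p under 0.05, Fgf7 was higher and Fgfr4 was lower by limma. Among all genes 6.5% were higher and 6.86% lower at that level. Fgf7 was higher in every PDAC array than in both normal ductal arrays, and Fgf2, Fgf10 and Fgfr4 were lower in every PDAC array. Of all genes, 13.6% were higher and 12.8% lower without overlap of the groups. The median log2 fold change was -0.24 over the 10 genes and 0.01 over all genes. Whether the biological replicates of the labels came from separate animals is not stated, so the p-values measure the spread between these 5 cultures, and their small number limits the precision.

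**Figure D2:**
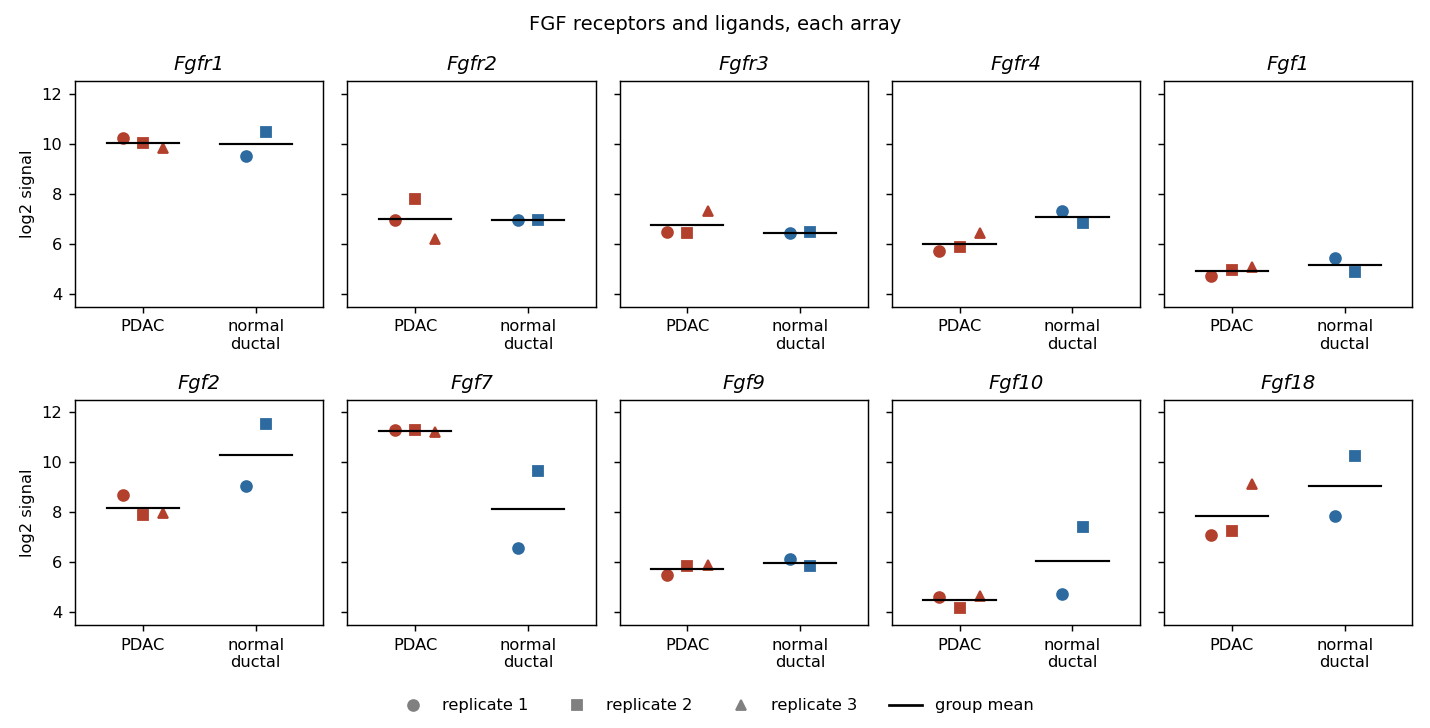
Log2 signal (vertical axis, 1 scale for all panels) of the 10 genes in each array, PDAC left and normal ductal right. Points are arrays, their shape is the replicate number, and black lines are group means. Fgf7 lies between 11.19 and 11.27 in PDAC, above both normal ductal arrays, while Fgf2, Fgf10 and Fgfr4 lie lower in all PDAC arrays.

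Fgf7 had the largest fitted difference of the set. Its log2 signal was 11.27, 11.27 and 11.19 in PDAC replicates 1, 2 and 3, against 6.59 and 9.64 in normal ductal replicates 1 and 2. The PDAC arrays lay within 0.08 of each other, while the normal ductal arrays lay 3.04 apart, and the lowest PDAC array exceeded the highest normal ductal array by 1.56. Means were 11.24 ± 0.04 (SD, n = 3) in PDAC and 8.11 ± 2.15 (SD, n = 2) in normal ductal cultures. On the signal scale the log2 fold change was 3.13 (SE 1.0, 95% interval 0.34 to 5.92), with a limma adjusted p = 0.337. Normal ductal replicate 1 lay under 6.61, the median of all genes, where a low level cannot be told from background. The difference was 4.65 (SE 0.07, adjusted p = 0.00593) without normal ductal replicate 2 and 1.61 (SE 0.06, adjusted p = 0.0116) without replicate 1. Each of these fits takes the lone normal ductal array to vary like the PDAC arrays. They called 4.97% and 6.46% of all genes. Between the normal ductal arrays, Fgf7 and the fibroblast list mean given above differed in the same direction. That mean was 7.41 in replicate 1 and 9.63 in replicate 2. The acinar, islet and endothelial list means rose likewise. In PDAC replicates 1, 2 and 3 the fibroblast mean was 9.17, 9.12 and 8.81. These means lay below that of normal ductal replicate 2, while Fgf7 lay above its level there. The part of any of these cell types in the Fgf7 values was not tested.

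Fgf10, also a ligand of the epithelial form of Fgfr2, had a difference of the opposite sign that rested on 1 culture. It stood at 4.62, 4.19 and 4.64 in PDAC replicates 1, 2 and 3, against 4.72 and 7.41 in normal ductal replicates 1 and 2. Normal ductal replicate 2 was high, and the other 4 arrays lay close together, with a gap of 0.08 between the groups. Means were 4.48 ± 0.26 (SD, n = 3) in PDAC and 6.06 ± 1.90 (SD, n = 2) in normal ductal cultures, with a log2 fold change of -1.58 (SE 0.89, limma adjusted p = 0.550). Without normal ductal replicate 2 it was -0.24, and without replicate 1 it was -2.92. Each of these fits holds 1 normal ductal array and takes its spread from the PDAC arrays alone.

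Because these ligands share a receptor form, the 250 bases before their annotated starts are shown, from RefSeq on the GRCm38.p6 build, 5′ to 3′. The Fgf7 window is chr2:126034408-126034657 on the plus strand and the Fgf10 window is chr13:118714449-118714698 on the plus strand, with capitals at a GC box.
Fgf7: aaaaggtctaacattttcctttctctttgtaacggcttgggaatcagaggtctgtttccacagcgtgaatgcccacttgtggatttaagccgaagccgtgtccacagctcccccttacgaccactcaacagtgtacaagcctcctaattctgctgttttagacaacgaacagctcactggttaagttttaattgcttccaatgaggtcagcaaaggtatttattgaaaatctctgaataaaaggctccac
Fgf10: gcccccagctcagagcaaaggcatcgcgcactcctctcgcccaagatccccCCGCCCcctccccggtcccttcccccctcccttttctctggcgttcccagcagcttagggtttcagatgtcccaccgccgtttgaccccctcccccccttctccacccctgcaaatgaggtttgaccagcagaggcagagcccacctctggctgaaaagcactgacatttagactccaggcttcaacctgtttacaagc
These 4 motifs were searched on both strands, the TATA box (TATAAA), the E-box CAGGTG, the AP-1 site TGACTCA and the GC box GGGCGG, none of which overlaps another. The Fgf10 window held 1 GC box, printed as its reverse complement, and the Fgf7 window held 0 of the 4 motifs. Among 32851 annotated windows of this length, 32.7% held a GC box, 12.4% a TATA box, 17.2% the E-box and 4.46% the AP-1 site. The share of G and C was 43.6% in the Fgf7 window and 61.2% in the Fgf10 window, with a median of 52.4% over all windows. These matches describe the letters and were not measured in the cultures.

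Fgf2, a broadly acting FGF that has no classical signal for secretion, was lower in every PDAC array. It stood at 8.67, 7.89 and 7.97 in PDAC replicates 1, 2 and 3, against 9.04 and 11.53 in normal ductal replicates 1 and 2. The groups did not overlap, but normal ductal replicate 1 lay only 0.38 above the highest PDAC array. Means were 8.18 ± 0.43 (SD, n = 3) in PDAC and 10.29 ± 1.76 (SD, n = 2) in normal ductal cultures, a level 4.32-fold lower in PDAC (log2 fold change -2.11, SE 0.86, 95% interval -4.53 to 0.31, limma adjusted p = 0.433). Without normal ductal replicate 2 the log2 fold change was -0.87 (adjusted p = 0.480), and without replicate 1 it was -3.36 (adjusted p = 0.0858).

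Fgf18, a ligand best known from bone and lung development, overlapped between the groups. Its signal was 7.11, 7.27 and 9.14 in PDAC replicates 1, 2 and 3, against 7.85 and 10.26 in normal ductal replicates 1 and 2. PDAC replicate 3 was high among the PDAC arrays and lay above normal ductal replicate 1. The log2 fold change was -1.22 (SE 1.08, limma adjusted p = 0.626), and -0.01 without normal ductal replicate 2 (adjusted p = 1.0) and -2.42 without replicate 1 (adjusted p = 0.441).

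Normal ductal replicate 2 was thus more than 1 above replicate 1 for 4 of the 10 genes, the ligands Fgf2, Fgf7, Fgf10 and Fgf18, by 2.49, 3.04, 2.69 and 2.41, against 2.93% of all genes. None of the 4 receptors differed so, the widest gap being that of Fgfr1 at 0.97, and 0 of the 10 were more than 1 higher in replicate 1, against 0.978% of all genes. The same array holds the higher fibroblast, acinar, islet and endothelial marker levels, whose part in the ligand levels was not tested.

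The remaining ligands had low signals and varied little. Fgf1, which binds every FGF receptor, stood at 4.73, 4.97 and 5.08 in PDAC replicates 1, 2 and 3, against 5.42 and 4.88 in normal ductal replicates 1 and 2. Fgf9, a ligand of mesothelium and epithelium that signals to mesenchyme in the lung, stood at 5.49, 5.85 and 5.88 in PDAC replicates 1, 2 and 3, against 6.14 and 5.85 in normal ductal replicates 1 and 2. For both, the groups overlapped. Fgf1 had a log2 fold change of -0.22 (SE 0.21, 95% interval -0.81 to 0.37, limma adjusted p = 0.652), and Fgf9 one of -0.25 (SE 0.17, 95% interval -0.74 to 0.23, adjusted p = 0.550). The table gives no detection call. Fgf1, Fgf9, Fgf10 and Fgfr4 had means over the arrays below 6.61, the median of all genes. At such signals a low level cannot be told from background. The same limit holds for single arrays below 6.61, such as Fgfr2 in PDAC replicate 3 and Fgf7 in normal ductal replicate 1. Of the genes given below, Hs3st3a1, Fgf16, Gpc3 and Spry3 were under it in all arrays. Esrp1, Il17rd and Cd93 were under it in all PDAC arrays.

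**Figure D3:**
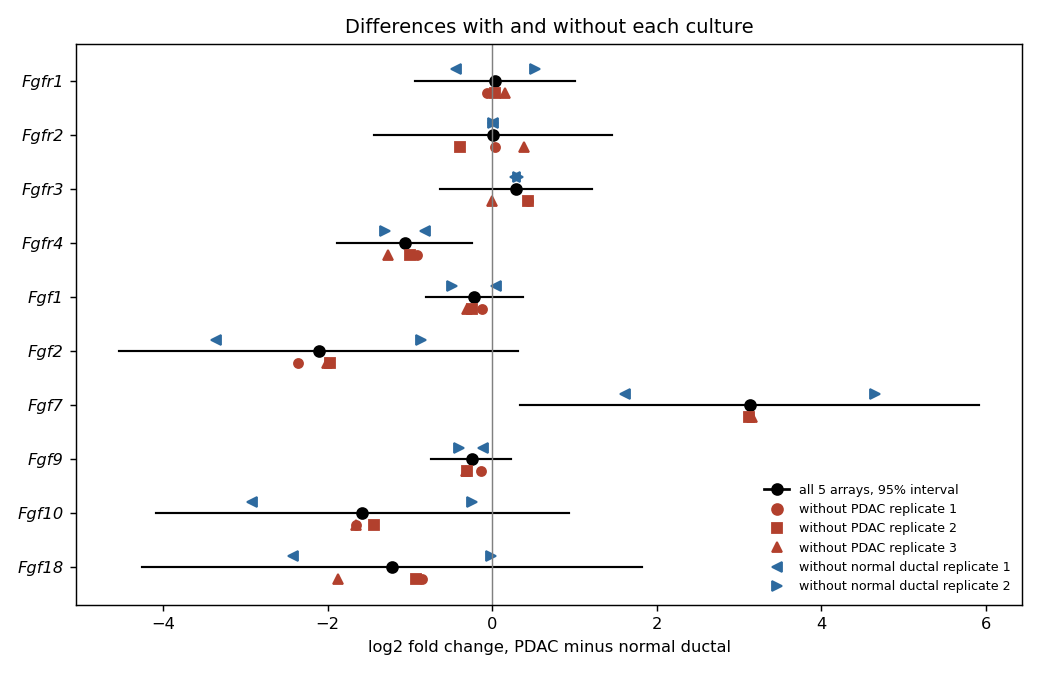
Log2 fold change (horizontal axis, PDAC minus normal ductal) of the 10 genes, with the 95% interval of the fit on 5 arrays and the value without each culture in turn. For Fgf2, Fgf7, Fgf10 and Fgf18 the values without normal ductal replicate 1 or 2 lie far apart, between 1.61 and 4.65 for Fgf7 and between -2.92 and -0.24 for Fgf10.

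Of the receptors, Fgfr4 alone separated the groups. Fgfr4, which with the co-receptor Klb is the FGF15 receptor of liver cells, stood at 5.70, 5.89 and 6.43 in PDAC replicates 1, 2 and 3, against 7.31 and 6.83 in normal ductal replicates 1 and 2. PDAC replicate 3 was the highest of its group and lay 0.40 below the lower normal ductal array. Means were 6.01 ± 0.38 (SD, n = 3) in PDAC and 7.07 ± 0.34 (SD, n = 2) in normal ductal cultures, with PDAC signals that cannot be told from background, so that the difference is given on the signal scale alone (log2 fold change -1.06, SE 0.29, 95% interval -1.89 to -0.24, unadjusted p = 0.0236 and adjusted p = 0.299 by limma). The value lay between -1.30 and -0.82 over the alternatives that kept this gene. The epithelial, duct and mesothelial list means given above have the same order over the 3 PDAC arrays as Fgfr4, which was not tested. Fgf1, Fgf9 and Fgf18 had this order too, Fgf1 and Fgf9 at signals that cannot be told from background. The share of all genes with this order was not counted, so no link is drawn from it.

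Fgfr1, the receptor most common in mesenchymal cells, had nearly equal group means. It stood at 10.22, 10.04 and 9.81 in PDAC replicates 1, 2 and 3, against 9.50 and 10.47 in normal ductal replicates 1 and 2, which lay below and above all PDAC arrays. The log2 fold change was 0.04 (SE 0.35, limma adjusted p = 0.996) with a 95% interval of -0.94 to 1.01. A difference of up to about a doubling either way is therefore within the error, and the sign turned under quantile normalization (-0.01).

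Fgfr2, whose epithelial form receives Fgf7 and Fgf10, differed more between PDAC cultures than between the groups. It stood at 6.94, 7.78 and 6.20 in PDAC replicates 1, 2 and 3, against 6.96 in both normal ductal replicates. PDAC replicate 2 was high and replicate 3 low, with the normal ductal arrays between them. The log2 fold change was 0.01 (SE 0.52, 95% interval -1.44 to 1.46, limma adjusted p = 1.0). The normal ductal values were equal to every deposited digit, so the spread in that group is not measured for Fgfr2. A tie between at least 2 arrays of a group was found for 37.3% of all genes.

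Fgfr3, an FGF receptor of epithelium and cartilage, was level in 4 arrays. It stood at 6.46, 6.44 and 7.31 in PDAC replicates 1, 2 and 3, against 6.43 and 6.46 in normal ductal replicates 1 and 2. Apart from PDAC replicate 3 these signals lay under 6.61, the median of all genes, so the level there cannot be told from background. Only PDAC replicate 3, the PDAC culture with the highest epithelial (8.28) and mesothelial (8.84) list means, stood apart, and the part of such cells was not tested. The log2 fold change was 0.29 (SE 0.33, 95% interval -0.63 to 1.21, limma adjusted p = 0.705), and 0.00 without PDAC replicate 3 (adjusted p = 1.0).

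Genes that FGF signalling induces, many of which dampen it, were read beside the receptors. Over the 20 feedback and target genes the median log2 fold change was -0.17, against 0.01 over all genes, and limma called 0 of them. At unadjusted p under 0.05, 0 were higher and 2 lower by limma, against 6.5% and 6.86% of all genes. Il17rd, a membrane inhibitor of FGF signalling, had -0.64 (SE 0.15, adjusted p = 0.253), and Spred3, of a family of RAS inhibitors, had -0.42 (SE 0.14, adjusted p = 0.353). Spry3 had 0.51 (SE 0.29, adjusted p = 0.550) and Spred1 0.52 (SE 0.28, adjusted p = 0.550).

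Within the PDAC group, replicate 2 was highest and replicate 3 lowest for 10 of the 20 feedback genes, the order that Fgfr2 also had. Over all genes 14.7% had this order. The count and the following genes were chosen after their values were seen. Spry4, a Sprouty inhibitor that MAPK signalling induces, stood at 7.50, 8.42 and 6.57 in PDAC replicates 1, 2 and 3, against 7.40 and 7.65 in normal ductal replicates 1 and 2. Etv5, a transcription factor induced by FGF signalling, stood at 7.58, 8.52 and 7.14 against 7.54 and 7.25 in the same order of cultures, and its relative Etv1 at 7.27, 8.47 and 5.01 against 5.93 and 6.29. Spry2, another Sprouty inhibitor, was 1.07 higher in PDAC replicate 2 than in replicate 3, and the ERK phosphatase gene Dusp6 was 0.78 higher, while Fgfr2 itself was 1.58 higher. Spry1 and Spry3 were among the genes of the list that went the other way, by -0.32 and -0.76. With 1 array per culture this order has no replicate check.

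**Figure D4:**
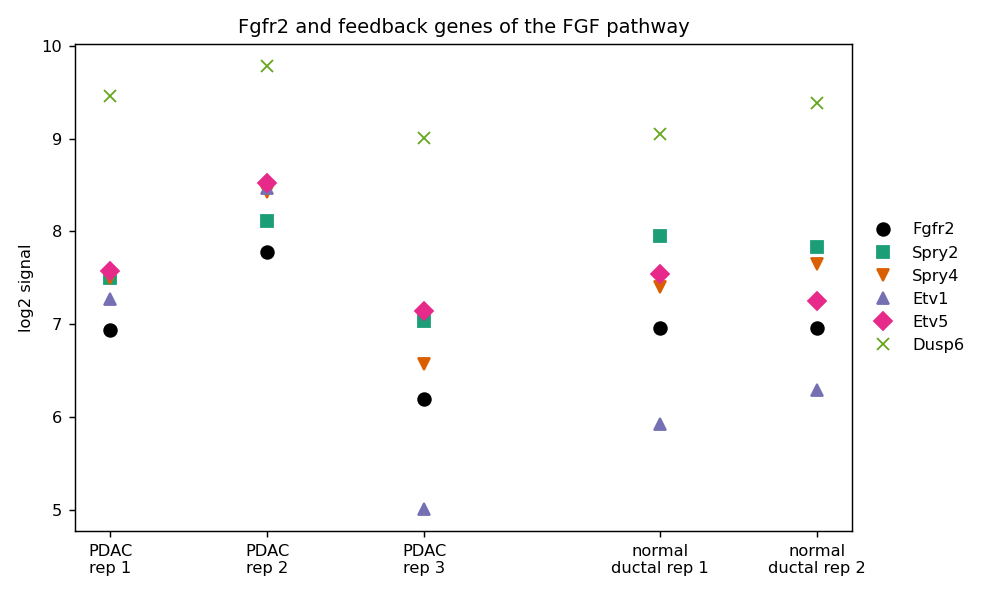
Log2 signal (vertical axis) of Fgfr2 and of 5 feedback genes in each array (horizontal axis, PDAC replicates left, normal ductal replicates right), 1 symbol per gene. All 6 genes are highest in PDAC replicate 2 and lowest in replicate 3 within the PDAC group, with Fgfr2 at 7.78 and 6.20.

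The regulators that splice FGF receptors were read next, since Esrp1 and Esrp2 are needed for the epithelial form of Fgfr2. Esrp1 stood at 5.0, 5.12 and 6.42 in PDAC replicates 1, 2 and 3, against 10.21 and 10.01 in normal ductal replicates 1 and 2 (log2 fold change -4.60, SE 0.52, limma adjusted p = 0.149). Esrp2 stood at 6.75, 6.25 and 7.58 against 7.98 and 8.37 in the same order of cultures (-1.31, SE 0.46, adjusted p = 0.365). All PDAC arrays lay below both normal ductal arrays for each gene, while Fgfr2 overlapped. Esrp1 is itself 1 of the 16 epithelial markers, whose median log2 fold change was -3.64. Of the 16, 14 were lower in every PDAC array, against 12.8% of all genes. Of the 12 splicing regulators limma called 0, with, at unadjusted p under 0.05, 4 higher and 2 lower (6.5% and 6.86% of all genes), and the list median was 0.21. Those with the smallest p among the higher ones were Hnrnpm (0.28, SE 0.09, adjusted p = 0.339), Srsf1 (0.37, SE 0.12, adjusted p = 0.346) and Rbfox2 (0.62, SE 0.20, adjusted p = 0.349).

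Other ligands of the family showed little spread. Of 12 further secreted FGFs limma called 0 (at unadjusted p under 0.05, 0 higher and 0 lower), with a median log2 fold change of -0.02. Fgf16 was the exception in size, at 4.44, 5.09 and 5.06 in PDAC replicates 1, 2 and 3, against 6.43 and 5.31 in normal ductal replicates 1 and 2 (-1.01, SE 0.44, adjusted p = 0.464). Of the 4 FGF homologous factors, which stay inside the cell and bind sodium channels, limma called 0 (0 at an unadjusted p under 0.05). Fgf13 of that group stood at 4.40, 4.83 and 7.02 in PDAC replicates 1, 2 and 3, against 7.89 and 7.16 in normal ductal replicates 1 and 2 (-2.11, SE 0.95, adjusted p = 0.485), PDAC replicate 3 lying near the normal ductal arrays.

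Proteins that hold or present FGFs include co-receptors and the enzymes that build heparan sulfate. Of 18 co-receptors and binding proteins limma called 0, with a median of -0.02. At unadjusted p under 0.05, 1 was higher and 1 lower by limma, against 6.5% and 6.86% of all genes. Sdc2, a heparan sulfate proteoglycan of the cell surface, stood at 10.63, 10.56 and 10.03 in PDAC replicates 1, 2 and 3, against 8.73 and 8.82 in normal ductal replicates 1 and 2 (1.63, SE 0.23, adjusted p = 0.166). Gpc3, a glypican, had -1.09 (SE 0.31, adjusted p = 0.306). Fgfbp1, a secreted carrier that frees FGFs from the matrix, stood at 5.69, 5.55 and 6.81 in PDAC replicates 1, 2 and 3, against 7.38 and 6.93 in normal ductal replicates 1 and 2 (-1.14, SE 0.48, adjusted p = 0.445). The membrane proteins Flrt1 and Flrt3, which bind FGF receptors, had 0.41 (SE 0.18, adjusted p = 0.480) and -1.08 (SE 0.75, adjusted p = 0.551).

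Of 15 measured heparan sulfate enzymes limma called 0, with, at unadjusted p under 0.05, 4 higher and 0 lower (6.5% and 6.86% of all genes), and a median of 0.23. Hs3st3a1, a sulfotransferase, stood at 5.89, 5.42 and 5.63 in PDAC replicates 1, 2 and 3, against 4.03 and 4.38 in normal ductal replicates 1 and 2 (1.44, SE 0.20, adjusted p = 0.166). Its relative Hs3st3b1 had 0.55 (SE 0.11, adjusted p = 0.212) and the sulfotransferase Ndst2 0.58 (SE 0.12, adjusted p = 0.223). Hs6st1 and Hs2st1, which place sulfates that FGFs bind, had -0.64 (SE 0.40) and -0.24 (SE 0.17), both overlapping between the groups.

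Over the 18 measured adaptor and cascade genes the median log2 fold change was 0.02, and limma called 0. At unadjusted p under 0.05, 1 was higher and 1 lower by limma, against 6.5% and 6.86% of all genes. Plcg1, a phospholipase that binds the activated receptor, stood at 8.74, 8.54 and 8.68 in PDAC replicates 1, 2 and 3, against 8.05 and 7.99 in normal ductal replicates 1 and 2 (0.63, SE 0.10, adjusted p = 0.173). The adaptor gene Crk had -0.41 (SE 0.08, adjusted p = 0.218). The others with the smallest p were Pik3r1 (0.35) and the RAS activator Sos1 (0.39) among higher values, and Map2k1 (-0.22) and the ubiquitin ligase gene Cbl (-0.47) among lower ones.

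**Figure D5:**
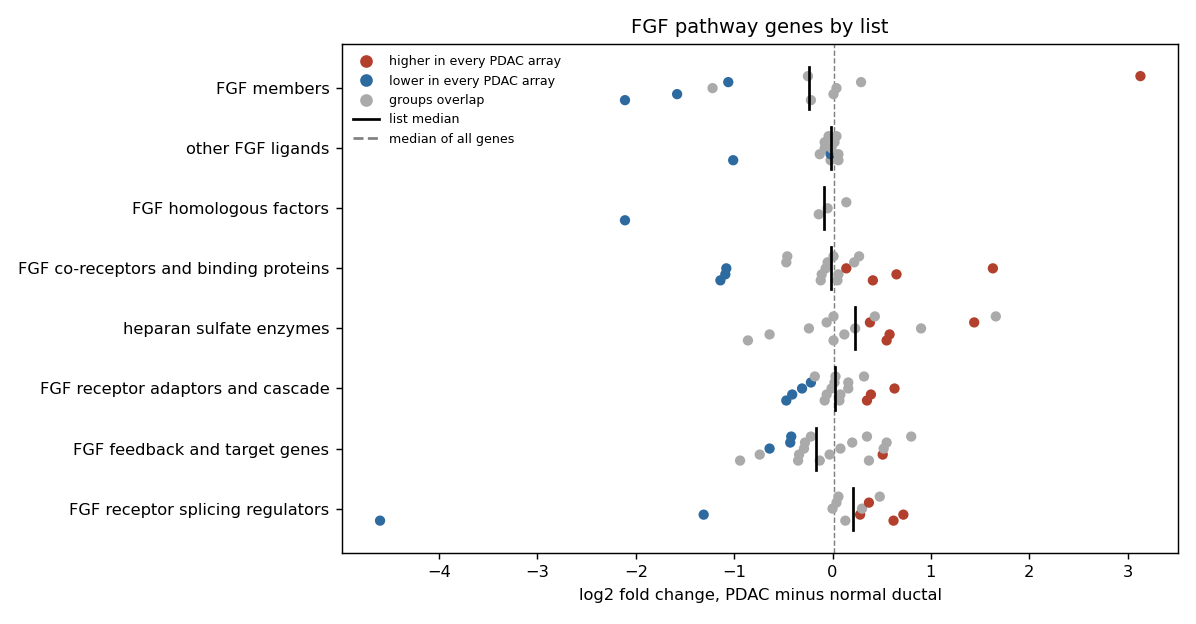
Log2 fold change (horizontal axis, PDAC minus normal ductal) of the genes of 8 FGF lists. Points are genes, coloured by whether every PDAC array lies above or below both normal ductal arrays, black bars are list medians and the dashed line is the median of all genes at 0.01. Fgf7 at 3.13 and Esrp1 at -4.60 lie farthest out.

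Genes with array values most like those of a member were sought for the 4 members that span at least 2 log2 units, by the root mean square difference over 5 arrays after each gene was centred on its mean. For Fgf7 they were Ogn (0.422), Pcolce (0.424) and Olfml3 (0.499). For Fgf2 they were Lama2 (0.232), Rspo3 (0.289) and Cd93 (0.317), and for Fgf10 they were Cd93 (0.10), Pf4 (0.131) and Saa3 (0.140). For Fgf18 they were Gpm6b (0.334), Serpinb1a (0.351) and 2210407C18Rik (0.407). Ogn stood at 9.99, 9.38 and 10.45 in PDAC replicates 1, 2 and 3, against 4.74 and 8.14 in normal ductal replicates 1 and 2, so that it too was lowest in normal ductal replicate 1. Cd93 stood at 5.41, 5.09 and 5.28 in PDAC replicates 1, 2 and 3, against 5.59 and 8.11 in normal ductal replicates 1 and 2, and it was thus high in normal ductal replicate 2 alone, as Fgf10 was. The likeness is over 5 arrays and was chosen from all genes, so it is given as a description.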

How the data were processed

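RNA of 5 cultures was hybridised to Affymetrix whole-transcript arrays. The authors deposited 1 log2 signal for each of 35556 probe sets and array. Per the submitters' processing notes they used Transcriptome Analysis Console 1.0.0.234 and the mm10 build; the normalization and the log base are not stated in the sources used here. Base 2 was inferred from the range of 0.727 to 13.9.

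The platform annotation gave 21789 probe sets 1 symbol, 1621 several and 12146 none here, and 21698 of the first matched the GRCm38.p6 gene list by Entrez identifier. The probe set with the highest mean stood for each of 19938 genes. Groups came from the titles. PDAC was compared with normal ductal by limma 3.58.1 (R 4.3.3, lmFit, eBayes with trend, two-sided, 0.91 prior and 3 residual degrees of freedom). Adjustment was by Benjamini-Hochberg across the whole table, with a threshold of 0.05. A permutation test over the 10 splits of the cultures cannot reach 0.05 and was not used. Summaries used pandas 2.3.3, numpy 2.4.6 and scipy 1.17.1 in Python 3.11.15, with figures drawn by matplotlib 3.10.9.

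Alternatives changed the scaling, the filter on low genes, the variance model, the summary of probe sets, the array weights, the threshold, a block on replicate number and the cultures used. After the data were seen, a fit leaving out genes whose arrays tie within a group was added. Members and lists were chosen with earlier results of these data known. Named genes are all members, up to 3 per list and direction by smallest p, Esrp1, Esrp2, Apc and the 3 genes most like each member that spans at least 2. Spry1, Spry2, Spry4, Etv1, Etv5 and Dusp6 were named after their values were seen. Marker lists are given as list values only. The comparison was simulated in 20 runs over 19938 genes, 200 of them changed. There limma called 40.0%, 72.2% and 91.3% of genes with log2 changes of 1, 2 and 4, and 4.45% of its calls were false. The simulated noise was normal with the same SD in both groups, taken per gene from the fit, tied genes included. These shares are therefore not the power for genes such as Fgf7, with an SD of 0.04 in PDAC and 2.15 in normal ductal cultures.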

Additional observations from a re-analysis of the deposited data

How the results depend on the processing

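Of the 10 FGF genes limma called 0 on all 5 arrays (at unadjusted p under 0.05, 1 higher and 1 lower). The count stayed 0 under every other alternative and lay between 0 and 2 with 1 culture left out, the calls being Fgf7 and Fgf10 without normal ductal replicate 1 and Fgf7 without replicate 2. Over all genes, where 1 was higher and 10 lower, the counts were 9 and 32 with quantile normalization, 10 and 23 with a common array median, 3 higher without the lowest 25% of genes, 15 and 27 without the lowest 50%, 0 and 3 with array weights (1079 and 1212 at unadjusted p under 0.05), 6 and 19 at a threshold of 0.1, and 36 and 131 without the genes whose arrays tie within a group. With 1 culture left out they lay between 0 and 980 higher and between 0 and 865 lower. They were 0 and 0 without PDAC replicate 1, 2 or 3, while unadjusted p under 0.05 gave 955, 934 and 1416 higher and 994, 1061 and 1335 lower. The fits without a normal ductal array gave 980 higher and 307 lower (without replicate 1) and 125 higher and 865 lower (without replicate 2). The residual spread of these fits comes from the PDAC arrays alone, so that between the normal ductal arrays is left out. Other causes of the shift in counts were not tested.

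The log2 fold change of Fgfr1 turned its sign with quantile normalization (-0.01) and ran between -0.44 and 0.52 with a culture left out. That of Fgfr2 ran between -0.39 and 0.39 and that of Fgf1 between -0.49 and 0.05. With the replicate number as a block limma called 0 higher and 0 lower genes and 0 of the 10 (1104 and 1110 genes, 0 and 1 of the 10, at an unadjusted p under 0.05). The labels do not say that a number marks a shared animal or day. Deviations of equal numbers from their group means correlated at -0.18 for number 1 and -0.04 for number 2. The deviations of the normal ductal arrays mirror each other, so these values cannot decide whether equal numbers share an animal or day. Sdc2 (adjusted p = 0.0478) and Esrp1 (0.0302) passed without the genes whose arrays tie within a group. Esrp1 passed also without the lowest 50% of genes (0.0472), as did Gpc3 without normal ductal replicate 1 (0.0262). The log2 fold change of Spry4 (-0.03 on all arrays) turned its sign with a common array median (0.05), array weights (0.13) and the replicate block (0.43), and ran between -0.49 and 0.43 with a culture left out. With a culture left out, that of Spry1 (-0.29) ran between -0.70 and 0.13 and that of Etv5 (0.35) between -0.04 and 0.65. Apart from Klb and the genes named for likeness to a member, whose fold changes are not given, no other named gene changed its call or its sign under those of the 16 alternatives that kept it (the filters on the lowest 50% of genes and on tied arrays left some out).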
